A study of Drosophila melanogaster with 5 samples.

Results

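Trf4-1 and su(w[a]) are RNA-processing genes on the X chromosome of Drosophila melanogaster, and 8 of the 709 MSL2 peaks of the series lay in them, 4 in each gene. The genes were chosen by these peaks: a peak was counted for a gene when its midpoint fell inside the gene's extent or within 1 kb of it, and all 8 midpoints lay inside. The number of peaks and their positions are therefore given as descriptions, without tests. Binding of MSL2 was profiled by CUT&RUN, in which an antibody-tethered nuclease releases the DNA around its target, in S2 cells, an established male-like Drosophila line. The labels give no treatment or genotype that differs between the groups. The anti-MSL2 group had 3 libraries made with rabbit serum against MSL2, and the control group had 2 libraries, for which the labels name a control target and the protocol names a pre-immune serum. The labels do not say whether the libraries of a group came from separate cultures. The data are 1 peak list for the series, with no value per library, so no value below has a replicate error. The libraries behind the list are not named.

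In Drosophila males, dosage compensation raises transcription of the single X. The MSL complex, which MSL2 belongs to, is known to bind the X at high-affinity sites, many of them rich in GA repeats, and to spread from these to active genes nearby, where histone H4 is acetylated. Trf4-1 encodes a nuclear noncanonical poly(A) polymerase, which adds short adenosine tails to RNAs that the exosome then trims or degrades. The gene su(w[a]), suppressor of white-apricot, encodes a splicing regulator that is known to act on the splicing of its own transcript.

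Trf4-1 (gene 31795) extends from X 8560322 to 8570159 in Release 6, the assembly also called dm6, and is 9838 bp long. The table of gene extents gives no strand, so its ends are named here by coordinate as the lower and the upper end. The first peak of Trf4-1 lay at X 8560926 to 8561076, with its midpoint 679 bp from the lower end. The next lay at X 8561559 to 8561709, 1312 bp from that end, and another at X 8561996 to 8562146, 1749 bp from it. The last lay apart from these at X 8569187 to 8569337, 897 bp from the upper end. The peaks thus fell near both ends of Trf4-1, with 3 in the first 17.8% of its length and the last at 90.9%. Distances between successive midpoints were 633, 437 and 7191 bp. The long interval without a peak contains the nested antisense RNA gene asRNA:CR46195, which held none (0 midpoints).

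The gene su(w[a]) (gene 31054) extends from X 1012779 to 1046040 and is 33262 bp long. Its peaks were confined to the upper part of the extent. The first lay at X 1033203 to 1033353, with the midpoint at 61.6% of the length. The next lay at X 1041534 to 1041684 (86.7% of the length), followed by peaks at X 1041820 to 1041970 (87.5%) and at X 1043004 to 1043154 (91.1%). The last peak, the nearest to an end of the gene, was still 2961 bp from the upper end. Successive midpoints were 8331, 286 and 1184 bp apart.

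Both genes had 3 peaks close together and 1 at some distance, as the map of peak midpoints in the gene bodies shows. In Trf4-1 the close group began the gene by coordinate, and in su(w[a]) it ended it. The 4 midpoints of each gene spanned 8261 bp in Trf4-1 and 9801 bp in su(w[a]). These spans differ less than the gene lengths do, so the peaks stretched over most of Trf4-1 and over less of su(w[a]). The density was 0.407 peaks per kb in Trf4-1 and 0.12 peaks per kb in su(w[a]).

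**Figure D1:**
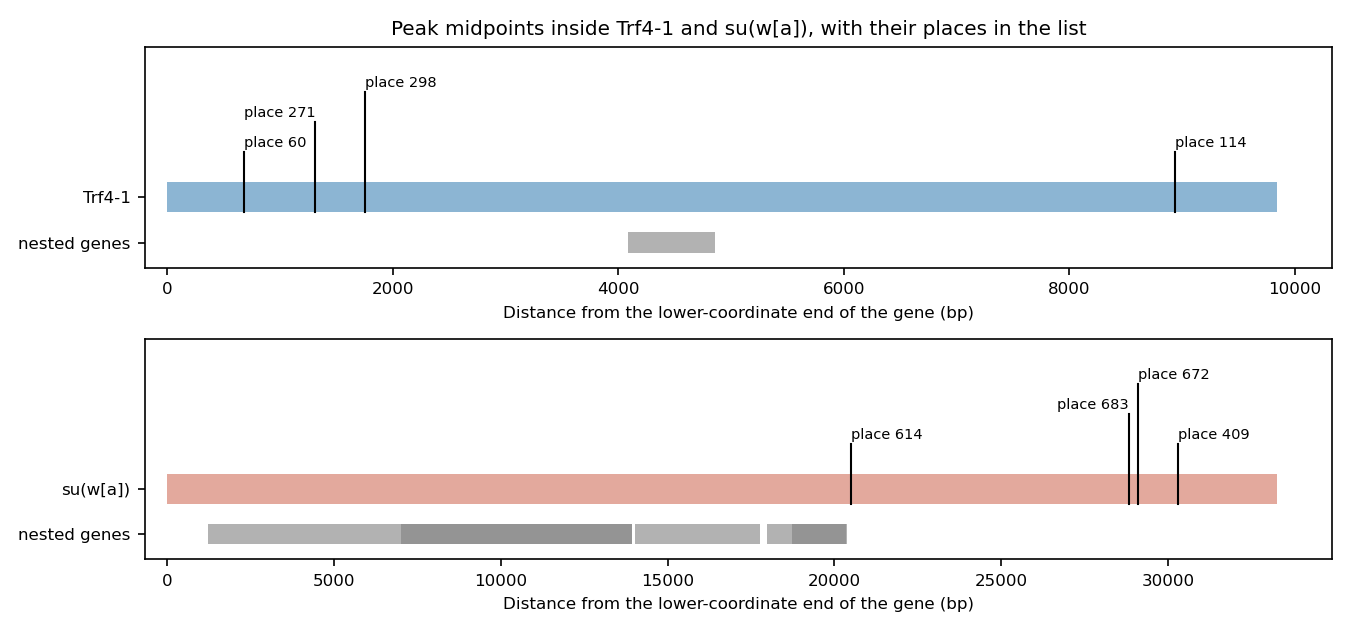
Midpoints of the 4 peaks in Trf4-1 (upper panel) and in su(w[a]) (lower panel), as vertical lines against the distance in bp from the lower-coordinate end of each gene, each with its place in the list; grey bars are genes nested in the extent, darker where they overlap. The panels have different scales. In Trf4-1 peaks lie near both ends, and in su(w[a]) all lie beyond the nested genes.

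The su(w[a]) peaks lay outside the genes nested in it. The extent of su(w[a]) contains 6 protein-coding genes, CG11638, CG32814, CG3021, Cdc45, Rpp21 and CG14630, which together cover 18894 bp or 56.8% of it. Cdc45 encodes a component of the replicative DNA helicase, and Rpp21 is named for a subunit of ribonuclease P, the enzyme that trims the 5′ ends of tRNAs. None of the 6 nested genes held a midpoint (0 each). Most genes on X held none, since 15.2% had 1 or more, so this is a description of position only. All 4 peaks lay in the longest stretch of su(w[a]) that no nested gene covers, which is 12875 bp long. The peak closest to the nested genes was 113 bp from the upper end of CG14630. By the limit of 1 kb, this peak would also count for CG14630 and Rpp21. Trf4-1 had 1 nested gene, asRNA:CR46195, over 7.84% of its extent.

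The closest pair of midpoints in the whole list lay in su(w[a]). Both inner peaks of this gene were 286 bp apart, the smallest of the 708 distances between adjacent midpoints, whose median was 7477 bp. The header of the list gives 300 bp as the minimum distance between peaks, and 2 of the 708 distances were under it. The header also says that each peak was moved to where tags piled up most, and the part of this step in the short distance was not tested. The peaks in question were late in the list, at places 683 and 672.

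The genes differed in where their peaks stood in the list. The peaks of Trf4-1, in order along X, were at places 60, 271, 298 and 114. The peaks of su(w[a]) were at places 614, 683, 672 and 409. The places did not overlap: the last peak of Trf4-1, at place 298, preceded the first of su(w[a]), at place 409. All 4 peaks of Trf4-1 were among the first 354 of the list, and none (0) of su(w[a]) was. Such splits were common: of the 130 genes on X with 2 or more peaks, 44 had them entirely in the first 354 and 22 entirely in the last 355. The uppermost peak by coordinate was the earliest of su(w[a]) and the second earliest of Trf4-1. In Trf4-1 the 2 peaks nearest to the ends, at places 60 and 114, preceded the 2 inner ones. What the order stands for is not stated in the header, and the list gives no tag count per peak, so an earlier place is not read as stronger binding.

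The number in the peak name followed the same order with small exceptions. Peak names of Trf4-1 carried the numbers 136, 321, 410 and 134 along X, and those of su(w[a]) carried 1197, 1990, 1719 and 574. The median over all peaks was 482, with a range from 19 to 3598. The 4 numbers of Trf4-1 were thus below the median and the 4 of su(w[a]) above it. The outer peaks of Trf4-1 had nearly equal numbers, at ranks 81 and 79 among the 709, although their places were 60 and 114. In the scatter of place against name number, the 8 peaks lie along the course of the others.

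**Figure D2:**
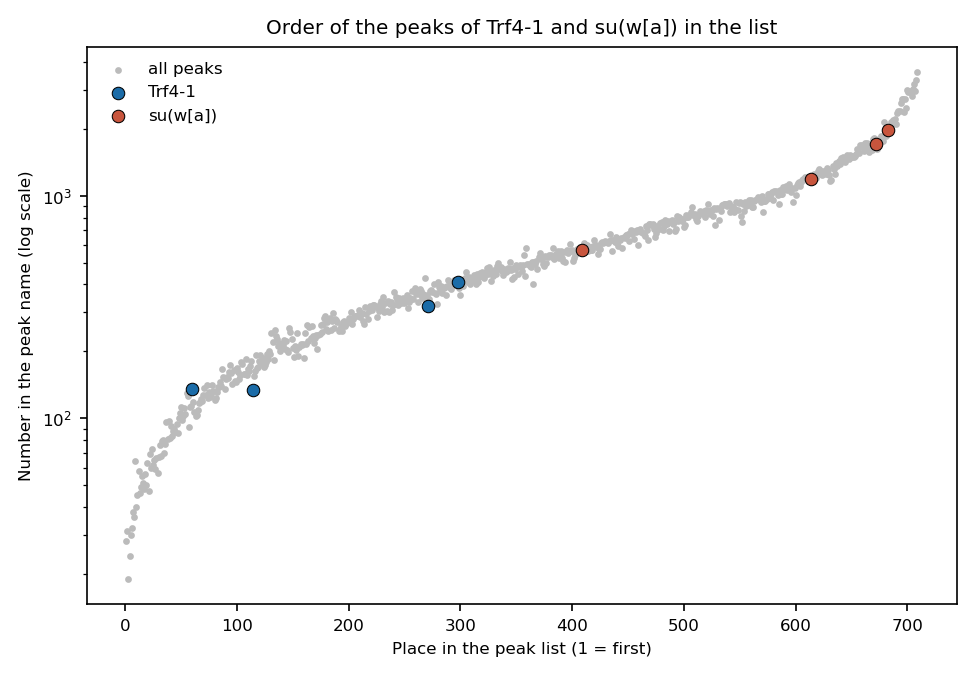
Number in the peak name (log scale) against place in the list for all 709 peaks (grey), with the peaks of Trf4-1 in blue and of su(w[a]) in red. The blue points lie between places 60 and 298 and the red points between places 409 and 683.

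Few genes on X held as many peaks. Of the 2705 genes on X in the table, 9 had 4 or more midpoints inside, or 0.333%. With midpoints within 1 kb counted as well, 16 genes (0.591%) had 4 or more. The 9 with 4 or more inside were Trf4-1, su(w[a]), nej, rudhira, Tomosyn, Mnr, Sec16, G9a and the lncRNA gene lncRNA:CR32773. Because the 2 genes were chosen by their peaks, these shares are background and are not evidence about them. Among these 9, Trf4-1 was the second shortest and had the second highest density, after G9a with 8673 bp and 0.461 peaks per kb. The extent of su(w[a]) was longer than that of all but 2 of the 9, lncRNA:CR32773 and Mnr. Longer genes offer more room for peaks, and the plot of peaks against gene length shows Trf4-1 to the left of su(w[a]) at the same count.

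**Figure D3:**
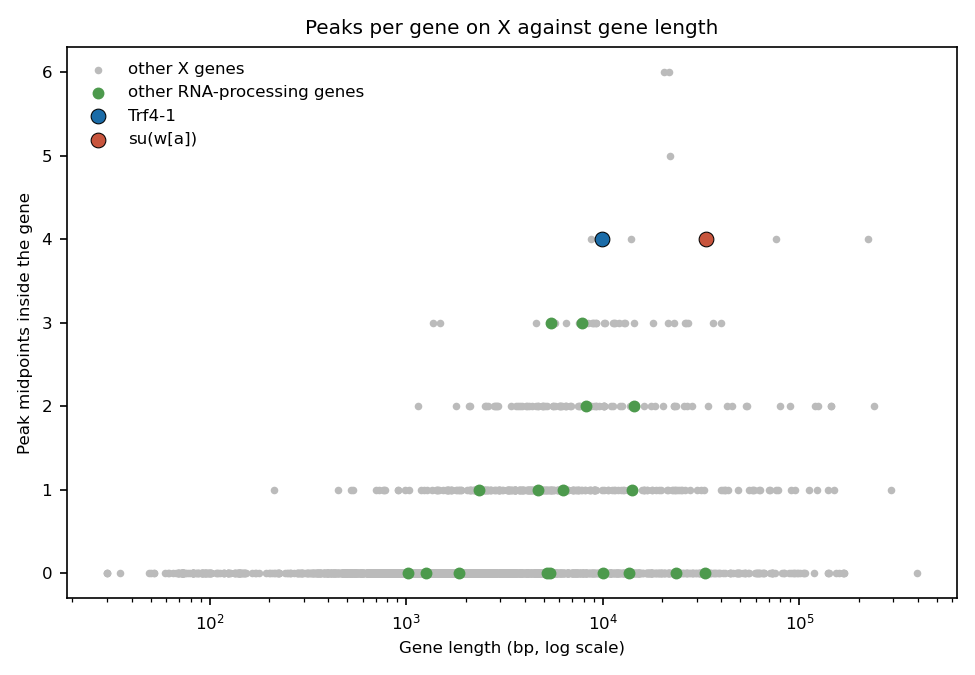
Peak midpoints inside each gene on X against gene length in bp (log scale); each point is 1 gene, with Trf4-1 in blue, su(w[a]) in red and the other RNA-processing genes of the list in green. At 4 peaks each, Trf4-1 is 9838 bp long and su(w[a]) 33262 bp.

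By place in the list, the 2 genes were far apart among the same 9. The median place was 192.5 in Trf4-1, the second lowest after nej with 171.5. It was 643 in su(w[a]), the second highest before G9a with 689.5. Peaks lay entirely in the first 354 of the list in 2 of the 9 genes, Trf4-1 and rudhira, and entirely in the last 355 in 2 others, su(w[a]) and G9a. The other 5 had peaks in both. Among all 130 genes with 2 or more peaks, 44 had them entirely in the first 354, 22 entirely in the last 355 and 64 in both.

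The genes most like each by number of peaks and length were taken from the protein-coding genes with 4 peaks. For Trf4-1 the nearest were G9a (0.882 times its length), Sec16 (1.41 times) and su(w[a]) itself (3.38 times). G9a encodes a histone H3 methyltransferase, and Sec16 a protein of the sites where vesicles leave the endoplasmic reticulum. The peaks of G9a were at places 553 to 698, so the gene closest to Trf4-1 in length and count was far from it in the list. For su(w[a]) the nearest were Mnr (2.28 times its length), Sec16 (0.417 times) and Trf4-1 (0.296 times). Only 6 genes on X had exactly 4 peaks, 5 of them protein-coding by the names above, so the matches in length are loose.

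A feature that the choice of genes did not use, and that was not among the planned results, was shared by both. Trf4-1 and su(w[a]) each have 7 RefSeq transcripts. The median over the 2197 protein-coding genes on X was 2 transcripts, and 124 of them (5.64%) had 7 or more. Over the 9 genes with 4 or more peaks the median was 6. Among them Tomosyn also had 7 and Mnr had 9, and the others had fewer, so the value is not particular to the 2. Long genes tend to have more annotated transcripts, and the part of gene length in these values was not tested.

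Around Trf4-1, peaks were found on the upper side alone within 50 kb. The window from 50 kb below to 50 kb above the gene held 7 midpoints, 4 in Trf4-1 and 3 beyond it. Outside the gene, its 3 peaks in 100 kb correspond to 30.0 peaks per Mb, close to the 30.1 peaks per Mb of all X. Of all genes on X, 64.6% had at least 3 midpoints outside the gene within 50 kb. The nearest peak outside the gene was 5943 bp from its upper end, inside CG12065 (X 8576027 to 8576177). The next lay between genes at X 8591738 to 8591888, 84 bp beyond CG12659 and 218 bp before Crag, which encodes an activator of Rab GTPases. The last was in Caf1-180 (X 8605052 to 8605202), which encodes the large subunit of chromatin assembly factor 1. They stood at places 661, 627 and 524, all later than the 4 peaks of Trf4-1.

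On the lower side of Trf4-1, the nearest peak was 122523 bp away, at X 8437724 to 8437874, where the extents of Miga and CG1440 overlap. Between that peak and Trf4-1, 20 genes lay wholly. The closest of them were CG12112, 130 bp from Trf4-1, and IntS4, 1541 bp from it. IntS4 encodes a subunit of the Integrator complex, which cleaves the 3′ ends of small nuclear RNAs. Next came Nrg, which encodes the cell adhesion protein Neuroglian, at 37798 bp in length. None of CG12112, IntS4 and Nrg held a midpoint inside (0 each), and of all genes on X only 15.2% did. The first peak of Trf4-1, 679 bp from its lower end, was also within 1 kb of CG12112. The interval from this peak to the first peak of Trf4-1 was 123202 bp, and 54 of the 708 intervals on X were longer. The lack of a peak within 50 kb below the lower end was shared by 36.7% of genes on X. On the upper side, CG12111 and spirit, 49 bp and 940 bp from Trf4-1, held none inside either (0 each). The last peak of Trf4-1, 897 bp from its upper end, was also within 1 kb of CG12111.

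Within 50 kb, the surroundings of su(w[a]) held fewer peaks than those of Trf4-1. With 100 kb on each side the order was reversed, at 9 midpoints for su(w[a]) and 7 for Trf4-1, own peaks included. The 50 kb window of su(w[a]) had 5 midpoints, 4 of them in the gene and 1 outside. That peak in 100 kb corresponds to 10 peaks per Mb, below the 30.1 of all X, and 82.6% of genes on X had at least 1 midpoint outside within 50 kb. The share of genes with as few as su(w[a]) was not counted, so the low value is not shown to be unusual. The single other peak, at X 1051355 to 1051505 and place 669, was 5390 bp above the upper end. It lay inside lncRNA:CR44779 and 95 bp before the lower end of CG14629. On the lower side the nearest peak was 71882 bp away, at X 940822 to 940972 and place 708, next to last in the list. The interval to the first su(w[a]) peak was 92381 bp, and 70 intervals on X were longer. Neither neighbour of su(w[a]), CG14631 at 155 bp and CG42259 at 184 bp, held a midpoint (0 each). TfIIA-S-2, which encodes a small subunit of the general transcription factor TFIIA, held none as well (0). Of all genes on X, 15.2% held a midpoint.

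**Figure D4:**
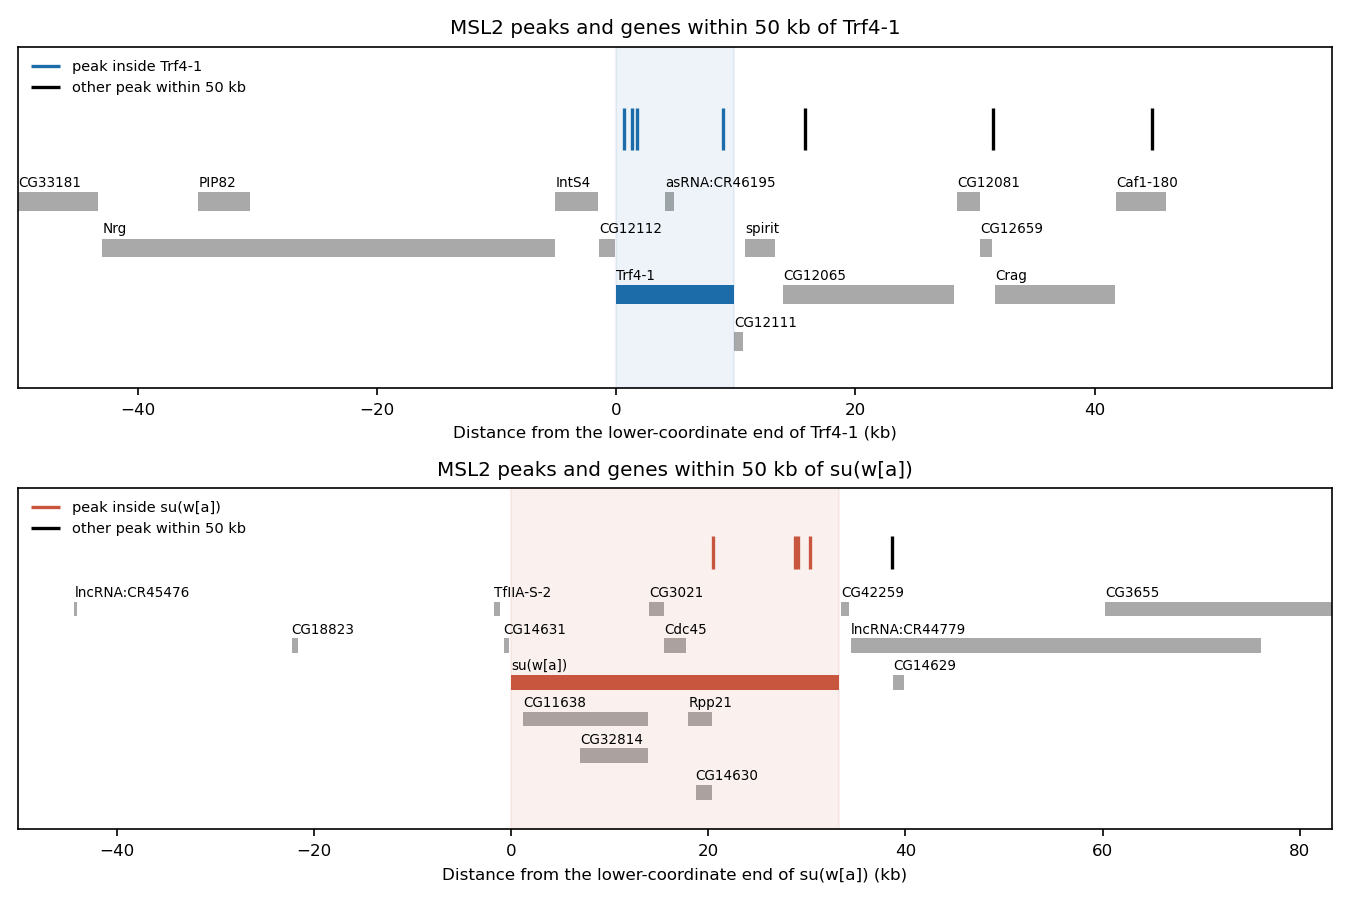
Peaks (vertical lines) and gene extents (bars, stacked to avoid overlap) within 50 kb of Trf4-1 (upper panel) and su(w[a]) (lower panel), against the distance in kb from the lower-coordinate end of each gene; coloured lines are the gene's own peaks. On the lower side of both genes there is no peak within 50 kb, and on the upper side there are 3 peaks at Trf4-1 and 1 at su(w[a]).

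The peaks just outside the limit of 1 kb were those at 5943 bp from Trf4-1 and 5390 bp from su(w[a]). No peak fell between the gene ends and these distances, so the number of peaks assigned to each gene was the same with limits of 0 and 2 kb.

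Other RNA-processing genes were examined from a list of 49 names covering the exosome, nuclear polyadenylation, splicing, RNA export and decay, of which 48 matched the gene table. The list was drawn up with results of these data known, and CG3198 in it was already known to hold peaks. The shares below are therefore descriptions and not evidence about RNA-processing genes. On X lay 19 of them, Trf4-1 and su(w[a]) included. Of the 17 others, 8 (47.1%) held at least 1 midpoint, while 17.8% of protein-coding genes on X did. The median length of these 17 was 6253 bp, and that of protein-coding genes on X 2520 bp. The part of length in the higher share was not tested. Within 1 kb, 12 of the 17 had a midpoint, against 34.4% of protein-coding genes. None (0) of the 17 had 4 peaks.

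The genes of this list with most peaks after the 2 were su(sable) and CG3198, with 3 midpoints each. The gene su(sable) encodes an RNA-binding zinc finger protein and, like su(w[a]), was found as a suppressor of mutations in other genes. Its peaks were at places 219, 451 and 463, overlapping the ranges of both Trf4-1 and su(w[a]). The peaks of CG3198 were at places 57, 105 and 282, over nearly the same range as those of Trf4-1. There were 2 in Cbp80, the large subunit of the nuclear cap-binding complex, at places 199 and 643. The mRNA export receptor gene sbr also had 2, at places 366 and 453.

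Single midpoints lay inside 4 genes. The peak inside su(f), which encodes a cleavage stimulation factor subunit for 3′ end formation, stood at place 37, ahead of every peak of Trf4-1. With midpoints within 1 kb counted as well, su(f) had 2. The peak of U2af50, the large subunit of the splicing factor U2AF, was at place 196. In pcm, the gene of the cytoplasmic 5′-to-3′ exonuclease, it was at place 503. In elav, which encodes a neuronal RNA-binding protein, it was at place 699, later than every peak of su(w[a]).

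The 9 list genes on X without a midpoint inside were snf, Sxl, nonA, fne, Upf1, Upf2, nonC, Rrp45 and l(1)10Bb. Of these, snf (a spliceosomal snRNP protein), Upf2 and nonC (both of nonsense-mediated decay) had 1 midpoint each within 1 kb, and l(1)10Bb had 2. Sxl, the splicing regulator that represses msl-2 in females, had none within 50 kb (0). Rrp45 encodes an exosome subunit, a component of the machinery that Trf4-1 feeds, and had none within 1 kb. The other 29 matched genes of the list lie off X and were not examined for peaks. Among them is Trf4-2, the related polymerase gene, on 3R.

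**Figure D5:**
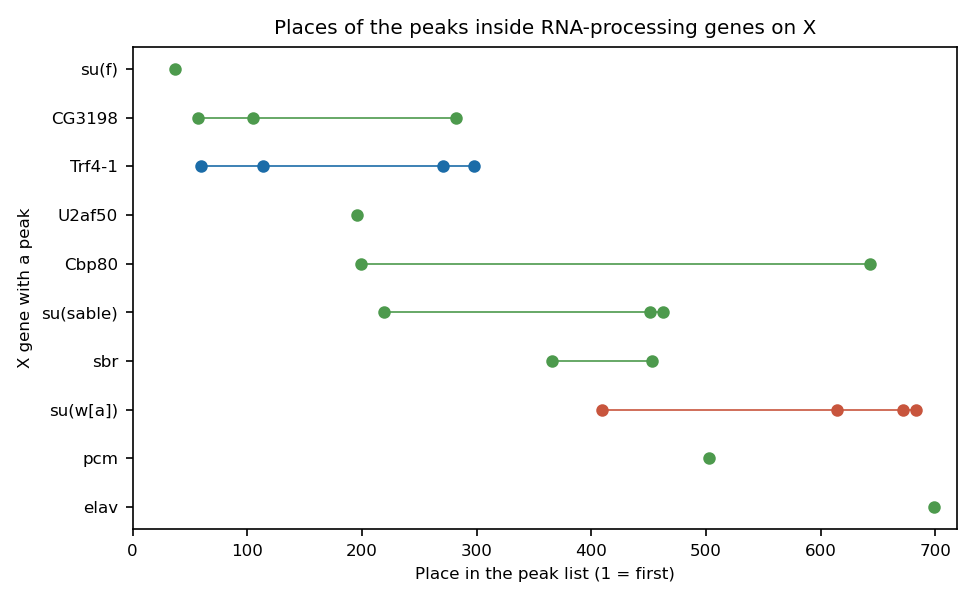
Place in the list of each peak inside an RNA-processing gene on X; points of 1 gene are joined by a line, and genes are ordered by their first place, with Trf4-1 in blue and su(w[a]) in red. The peaks of Trf4-1 stand between places 60 and 298, and those of su(w[a]) between 409 and 683.

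Facts of the list bear on these values. The header gives 7890306 tags for the anti-MSL2 directory. Peaks had to hold at least 25 tags and to exceed the control 10-fold and the surrounding 10000 bp 4-fold. All 709 peaks passed both limits, the 8 included, because only such peaks are listed. The 3 peaks near the lower end of Trf4-1 each have others of the list within those 10000 bp. So do the 3 near the upper end of su(w[a]), and the part of this in the local limit was not tested. Peaks of these loci that failed either limit are not in the list and were not analysed here, so a gene without a peak is not shown to be unbound.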

How the data were processed

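The authors' peak calling used HOMER findPeaks (factor style) on 1 anti-MSL2 tag directory against 1 control directory, per the file headers. The submitters' processing notes name Bowtie2 2.2.9, SAMtools 1.9, HOMER 4.9 and build dm6. The deposited score column holds 1 for all 709 peaks and was not used. The libraries in each directory are not stated, so replicates could not be compared.

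Positions were made 1-based and each peak of 151 bp was reduced to its midpoint. Gene extents, identifiers and transcripts came from RefSeq (Release 6). Counts were made with Python 3.11.15 and pandas 2.3.3, and the assignment was tested on simulated data. Genes were named by rule: Trf4-1 and su(w[a]), genes with a peak within 50 kb, the nearest genes, RNA-processing genes on X, and the 3 genes with the same count and closest length. Further neighbours, nested genes and genes with 4 or more peaks were named after their values were seen. The members and lists were chosen with earlier results of these data known, and no test was made. Sequence, strand and exons were not used here. A gene left out of the RNA-processing list is not reported here.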

Additional observations from a re-analysis of the deposited data

How the results depend on the processing

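Of 21 alternative values, 16 stayed within 1.5 times the reported count or share. The share of X genes with 4 or more peaks rose from 0.333% to 0.591% with genes extended by 1 kb, since more peaks then count for each gene. The count of RNA-processing genes within 1 kb (12 in place of 8 with a midpoint inside) was added after seeing the data. Both genes kept 4 peaks with limits of 0 and 2 kb and with an overlap of 1 bp. They also did with the whole peak required inside the gene extended by 1 kb. Counting peaks within 1 kb of each other as 1 left 2 in Trf4-1, since its 3 lower peaks then form 1. It left 3 in su(w[a]), where only the pair 286 bp apart was joined. In the first 354 peaks su(w[a]) had 0 peaks, and with name numbers up to the median it also had 0, since its peaks are late in the list. Within 100 kb there were 9 midpoints at su(w[a]) in place of 5, while Trf4-1 kept 7. Fewer peaks around su(w[a]) than around Trf4-1 thus held at 25 and 50 kb and not at 100 kb. No paired analysis was possible because the series has 1 list without separate values per library, and for the same reason no library could be left out. The threshold on score could not be tried, as score is constant, and the motif search was not run without sequence. The depth per library is not given, so how far these peaks recur between libraries cannot be stated.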

Other observations

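Spacing of midpoints inside a gene was examined in the other RNA-processing genes with more than 1 peak. The smallest distance was 387 bp in su(sable), 385 bp in sbr, 573 bp in CG3198 and 1686 bp in Cbp80, against 437 bp in Trf4-1 and 286 bp in su(w[a]). Over all 130 genes on X with 2 or more peaks, the median of the smallest distance was 1816.5 bp, and 11 genes (8.46%) had 437 bp or less. Genes outside RNA processing had distances in the same range, such as 394 bp in rudhira and 442 bp in G9a. The other pair under the 300 bp minimum of the header was 293 bp apart, inside Pp4-19C, and began with the peak at X 20423504 to 20423654.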
